A study of Mus musculus with 6 samples.

Results

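Genes of the endoplasmic reticulum (ER) folding machinery and of the unfolded protein response were examined in hippocampus of the daDREAM transgenic mouse line L26 and of wild type mice. The group was set by name as 34 genes, and all 34 were found among the 18193 genes that the arrays measure. A single probe set stands for each gene, namely, of those annotated to a single symbol, the brightest on average over the 6 arrays. No filter on signal was applied, so that every gene entered the test. By role the 34 genes were divided into 15 chaperones and folding enzymes, 4 sensors and factors of the ATF6 and IRE1 branches, 9 genes of ER-associated degradation (ERAD) and of the translocon, and 6 genes of the PERK-ATF4-CHOP arm.

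The data are 3 Affymetrix Mouse Genome 430 2.0 arrays of wild type and 3 arrays of L26 hippocampus. L26 mice were adult males homozygous for a transgene encoding daDREAM, a dominant active mutant of DREAM, the calcium-binding transcriptional repressor encoded by Kcnip3. The wild type mice were their adult male littermates, both groups had a C57B6xCBA background, and neither received a stimulus that the labels name. The promoter that drives the transgene is not given in the sources used here, and L26 is a single transgenic line, so the effect of the transgene and that of its insertion site cannot be told apart. The series describes the 3 arrays of each group as independent biological replicates.

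Values are on the log2 scale, and a difference is the L26 mean minus the wild type mean. Array medians were between 7.27 and 7.32, arrays of the same group correlated at 0.9971 to 0.9979 over probe sets and arrays of different groups at 0.9944 to 0.9958. The 8 markers of hippocampal excitatory neurons had a wild type list mean of 10.30. The brightest were Camk2a and Neurod6, with wild type means of 13.02 and 12.06, and the dimmest was Prox1, with 7.90. In all, 945 of 18193 genes (5.19%) passed an adjusted p of 0.05 in limma, 478 of them higher and 467 lower in L26. After centring each array on its median the split was 382 higher and 690 lower. Means of marker lists differed too. Oligodendrocyte markers (12 genes) were 0.36 (SE 0.07) higher in L26, vascular markers (13 genes) 0.40 (SE 0.03) higher and excitatory neuron markers (8 genes) 0.22 (SE 0.01) higher, without overlap between the groups. In whole tissue, more cells of a type and more RNA per cell cannot be told apart.

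Proteins that enter the ER are folded by chaperones of the HSP70 and HSP90 families, by lectin chaperones that hold glycoproteins and by protein disulfide isomerases. When unfolded proteins accumulate, the sensors ATF6, IRE1 (encoded by Ern1) and PERK (encoded by Eif2ak3) start a response with separate outputs. Cleaved ATF6 and the spliced form of XBP1 that IRE1 produces raise chaperone and ERAD genes, whereas PERK phosphorylates the initiation factor eIF2, which slows translation and favours that of ATF4 and, downstream, CHOP (Ddit3). In neurons the same machinery serves the synthesis of receptors, channels and secreted peptides.

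ATF6 and XBP1 are known to act on promoters through the ER stress response element ERSE (CCAAT and CCACG with 9 letters of any kind between them) and, for some genes, ERSE-II (ATTGG and CCACG with 1 letter between them). Promoter windows of 300 bases, from 250 bases before to 50 bases after a RefSeq start site in GRCm38.p6, were on hand for 30 of the 34 genes and not for Manf, Hyou1, Atf6 and Derl1. With both strands searched, ERSE letters were in the windows of 9 of these genes, 7 of them chaperones, and ERSE-II letters in those of Dnajb11 and Herpud1. Of all 32851 windows of this length, 0.119% held ERSE letters, against 29% of the 31 windows of the group, and 0.0365% held ERSE-II letters, against 6.45%. Since both elements were described on genes of this kind, this share is a property of the gene list and not a result of the arrays. The matches are written 5′ to 3′ with the letters that define the element in capitals. Only exact letters were searched, so variants of an element and elements outside the windows were not seen. Whether ATF6 or XBP1 acts on a given promoter, with or without a match, was not examined here.

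Hspa5, chr2:34772025-34772043, plus strand: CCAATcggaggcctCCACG
Hsp90b1, chr10:86705638-86705656, minus strand: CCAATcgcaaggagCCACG
Hsp90b1, chr10:86705533-86705551, plus strand: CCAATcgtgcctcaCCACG
Calr, chr8:84847075-84847093, plus strand: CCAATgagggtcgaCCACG
Canx, chr11:50325800-50325818, minus strand: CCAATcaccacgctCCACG
Pdia6, chr12:17266491-17266509, plus strand: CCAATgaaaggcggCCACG
Dnajc3, chr14:118937827-118937845, plus strand: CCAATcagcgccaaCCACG
Creld2, chr15:88819520-88819538, minus strand: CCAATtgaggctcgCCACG
Derl3, chr10:75893242-75893260, minus strand: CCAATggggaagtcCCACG
Syvn1, chr19:6046532-6046550, plus strand: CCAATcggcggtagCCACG
Dnajb11, chr16:22857852-22857862, plus strand: ATTGGcCCACG
Herpud1, chr8:94386377-94386387, plus strand: ATTGGgCCACG

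The Hspa5 window (GRCm38.p6, chr2:34771840-34772139, plus strand) is given whole, with its ERSE match in capitals, because Hspa5 had the largest difference of the 34 genes.

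Hspa5: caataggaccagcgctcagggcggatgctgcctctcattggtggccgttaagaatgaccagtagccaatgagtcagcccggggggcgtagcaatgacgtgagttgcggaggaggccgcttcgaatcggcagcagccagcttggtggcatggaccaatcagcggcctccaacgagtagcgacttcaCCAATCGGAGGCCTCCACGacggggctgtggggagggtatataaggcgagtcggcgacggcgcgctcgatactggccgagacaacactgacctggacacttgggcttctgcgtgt

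The 10 ERSE matches began between positions -212 and -44, counted in bases from the start site, and the ERSE-II match of Dnajb11 began at position 7, downstream of it. The UPRE core (TGACGTGG) and the DRE of the prodynorphin type (GTCAAGG), an element that DREAM binds, were in 0 of the 31 windows, against 0.676% and 3.18% of all windows. The ATF4 composite element (TGATGCAA) was in the windows of Herpud1 and Atf3 (0.895% of all windows), and the cyclic AMP response element (TGACGTCA) in that of Ppp1r15a (1.79% of all windows).

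**Figure D1:**
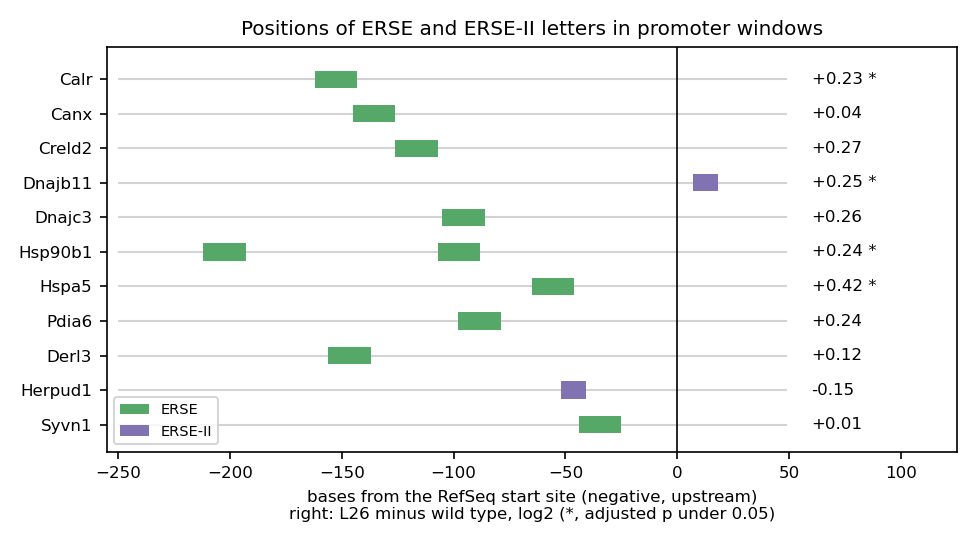
Positions of ERSE (green) and ERSE-II (violet) letters in the 300-base promoter windows of 11 genes, in bases from the RefSeq start site on the horizontal axis; the numbers at the right give L26 minus wild type on the log2 scale, with an asterisk for an adjusted p under 0.05. Of these 11 genes Hspa5, Hsp90b1, Calr and Dnajb11 passed, where 5.19% of all genes passed. The chaperones Canx, Creld2, Dnajc3 and Pdia6 and the 3 ERAD genes Derl3, Herpud1 and Syvn1 did not.

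Some of the ER chaperones were higher in L26 hippocampus, by small amounts. Of the 15 chaperones and folding enzymes 6 rose (Hspa5, Sdf2l1, Pdia4, Dnajb11, Hsp90b1 and Calr), by 1.17-fold to 1.34-fold, 0 fell and 9 did not pass (limma; 11 were higher and 1 lower at an unadjusted p under 0.05). The means of Dnajb9 (-0.18) and Hyou1 (-0.11) were below those of wild type. Among all 34 genes 7 rose and 1 fell (23.5%), where 5.19% of all genes passed, 2.63% as higher and 2.57% as lower. At an unadjusted p under 0.05 stood 17 of the 34, and 20.3% of all genes. The median difference was 0.24 over the chaperones and 0.13 over the 34 genes, against 0.01 over all genes. The L26 arrays all lay above the wild type arrays for 11 of the 15 chaperones, and for 13% of all genes.

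These calls depended on each array. Chaperones past the threshold numbered 2 without wild type replicate 1, 2 or 3, 3 without L26 replicate 1, 0 without L26 replicate 2 and 1 without L26 replicate 3. When arrays were centred on their medians 3 remained past it (Pdia4, Sdf2l1 and Dnajb11). The direction of the 6 differences was kept in each of these fits. Since the groups of these 6 genes do not overlap, leaving out an array could not reverse it, so this adds no support.

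**Figure D2:**
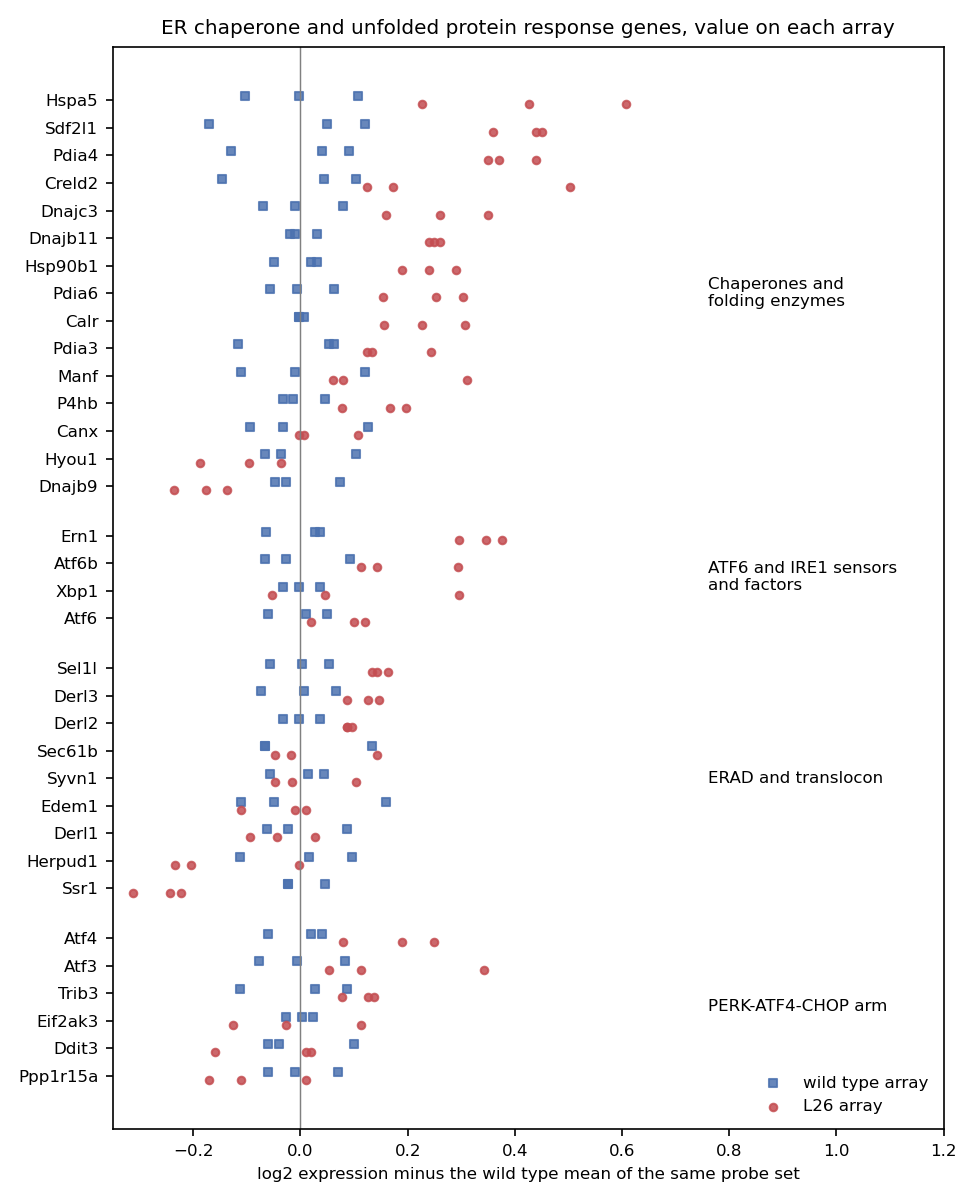
Value of each of the 34 genes on each array, as log2 expression minus the wild type mean of the same probe set (horizontal axis), by role; squares are the 3 wild type arrays and circles the 3 L26 arrays. The L26 circles lie to the right of the wild type squares for 11 of 15 chaperones, and for 13% of all genes. The groups do not overlap, in either direction, for 1 of the 6 genes of the PERK-ATF4-CHOP arm and for 4377 of all 18193 genes.

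Hspa5 encodes BiP, the HSP70 chaperone of the ER that also holds the 3 sensors inactive. It measured 12.01, 12.11 and 12.22 in wild type and 12.72, 12.54 and 12.34 in L26 (replicates 1, 2 and 3). The L26 arrays were all above the wild type arrays and were spread over 0.38, with replicate 1 the highest. The difference was 0.42 (SE 0.10, adjusted p = 0.0415, limma), a 1.34-fold increase with a 95% interval of 0.20 to 0.64 on the log2 scale. The adjusted p was above 0.05 when any array other than L26 replicate 3 was left out (0.0591 to 0.123), and it was 0.0507 with arrays centred on their medians. The other Hspa5 probe sets had 0.35 (1427464_s_at) and 0.21 (1447824_x_at), neither of which passed.

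Among partners of BiP, Dnajb11 and Sdf2l1 rose, and Dnajc3 had a higher mean in L26 without passing. Dnajb11, an HSP40 co-chaperone that brings substrates to BiP, measured 9.98, 10.03 and 9.99 in wild type and 10.24, 10.25 and 10.26 in L26. The values within either group lay within 0.05, and the groups were 0.21 apart at their closest. It rose by 0.25 (SE 0.05, adjusted p = 0.0216), although the call was lost when any array other than L26 replicate 1 was left out. Sdf2l1, a component of the complex of BiP and Dnajb11, measured 7.91, 8.13 and 8.20 in wild type and 8.53, 8.52 and 8.44 in L26, without overlap. Its difference of 0.42 (SE 0.08, adjusted p = 0.018) was 1.33-fold, and it missed the threshold when any of the 3 L26 arrays was left out (adjusted p from 0.0558 to 0.0742). For Dnajc3, the co-chaperone p58IPK, the values were 10.07, 10.01 and 10.16 in wild type and 10.43, 10.34 and 10.24 in L26. The groups did not overlap, but the difference of 0.26 (SE 0.07, adjusted p = 0.0616) did not pass. All 5 Dnajc3 probe sets had a higher mean in L26, from 0.24 to 0.50, and 1419162_s_at (0.50, SE 0.08) passed over all probe sets (adjusted p = 0.00747).

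Dnajb9 and Hyou1 were the chaperones with a lower mean in L26. Dnajb9 encodes ERdj4, a co-chaperone that represses IRE1. It measured 11.77, 11.65 and 11.67 in wild type and 11.56, 11.46 and 11.52 in L26. All L26 values were below all wild type values, with a difference of -0.18 (SE 0.06, adjusted p = 0.105) that did not pass; it did with an intensity trend and a robust prior (adjusted p = 0.0332). Hyou1, the nucleotide exchange factor of BiP, overlapped between the groups at -0.11 (SE 0.07, adjusted p = 0.414). All 3 Hyou1 probe sets had a lower mean in L26, down to -0.25 (1423290_at), and none passed. Manf, a secreted factor that binds BiP, had 0.15 (SE 0.08, adjusted p = 0.364) with overlapping groups. Creld2, an ER protein induced with Manf under stress, had 0.27 (SE 0.11, adjusted p = 0.196), and its highest value, 9.06, was on L26 replicate 1.

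Hsp90b1, which encodes the ER HSP90 GRP94, measured 11.46, 11.47 and 11.39 in wild type and 11.68, 11.73 and 11.63 in L26. The groups were apart by 0.16 and the difference was 0.24 (SE 0.05, adjusted p = 0.0372). The call was lost on leaving out any one array (adjusted p from 0.0753 to 0.133). With adjustment over all probe sets rather than genes it also missed the threshold (limma, adjusted p = 0.0516). The second Hsp90b1 probe set had 0.16 (adjusted p = 0.377).

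In the lectin cycle, which retains glycoproteins until they are folded, the soluble and the membrane-bound lectin had different values. Calr, the soluble calreticulin, measured 12.38, 12.37 and 12.37 in wild type and 12.53, 12.60 and 12.68 in L26. The wild type values were nearly the same, and the L26 values were all higher. The difference of 0.23 (SE 0.06, adjusted p = 0.0492) was close to the threshold. It missed the threshold without any array other than L26 replicate 1 (adjusted p from 0.101 to 0.156), with centred arrays (0.0664) and over all probe sets (0.0661). The other 2 Calr probe sets each had 0.16 with groups that did not overlap. Canx, the membrane-bound calnexin, had 0.04 (SE 0.07, adjusted p = 0.824), with a 95% interval of -0.12 to 0.19. The difference between the Calr and Canx values was not tested. Pdia3, the disulfide isomerase that works with both, had 0.17 (SE 0.07, adjusted p = 0.198) on the probe set that represents it. A second Pdia3 probe set, 1445330_at, had 0.37 (SE 0.06) and passed over all probe sets (adjusted p = 0.00968).

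Of the other protein disulfide isomerases, Pdia4 rose, with 9.09, 9.04 and 8.87 in wild type and 9.35, 9.44 and 9.37 in L26. The groups were 0.26 apart and the difference was 0.39 (SE 0.07, adjusted p = 0.0138), or 1.31-fold. It remained past the threshold except without L26 replicate 2 (0.0636) or L26 replicate 3 (0.0558). Pdia6 measured 10.24, 10.29 and 10.36 in wild type and 10.60, 10.55 and 10.45 in L26, without overlap. Its difference of 0.24 (SE 0.06, adjusted p = 0.0585) did not pass; it did after a repeated quantile normalization (0.0438), without the dimmest 40% of probe sets (0.0429) and with an intensity trend and robust prior (0.0201). P4hb, the abundant PDI itself, had 0.15 (SE 0.06, adjusted p = 0.175), and its L26 arrays were above the wild type arrays by only 0.03.

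**Figure D3:**
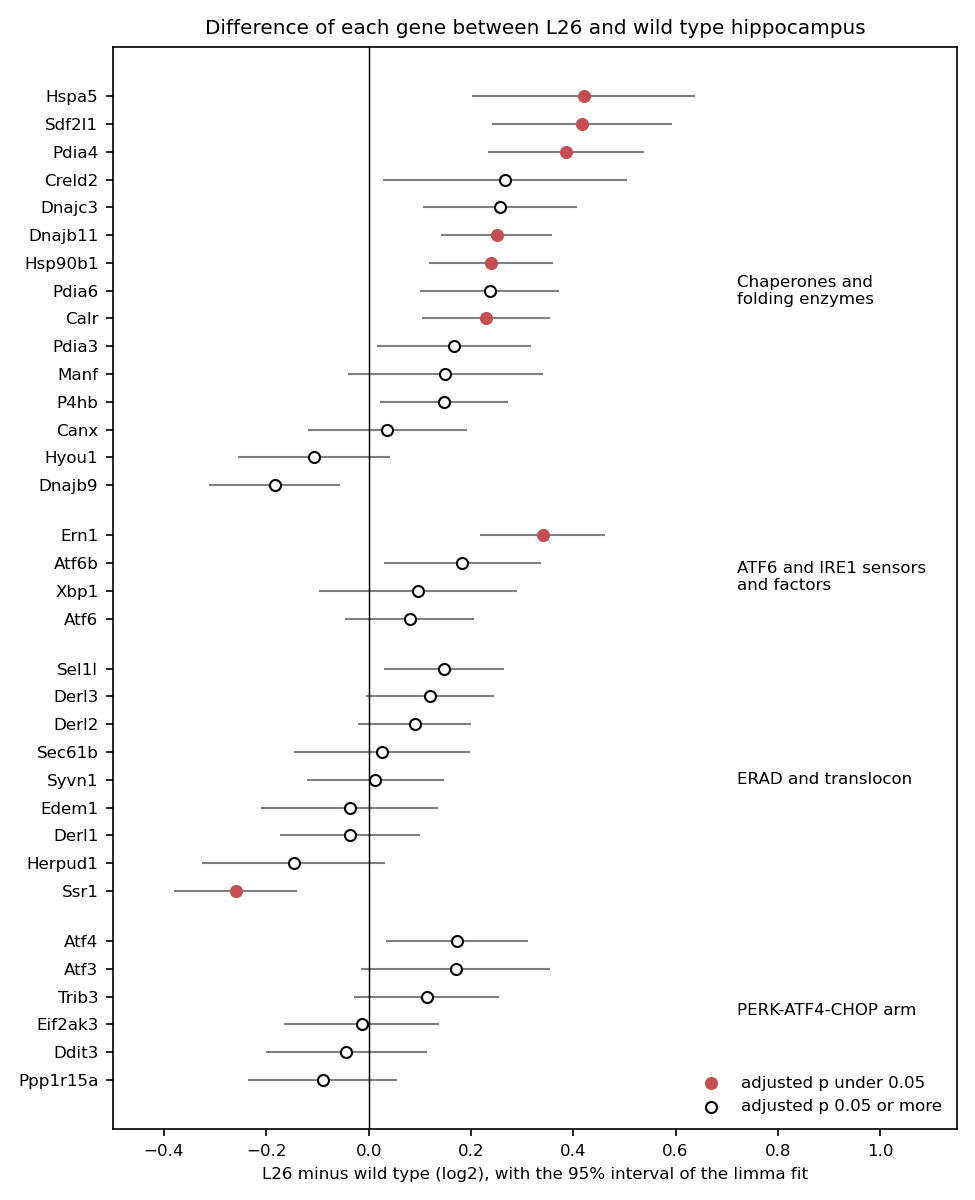
Difference between L26 and wild type (log2, horizontal axis) of each of the 34 genes by role, with the 95% interval from limma as a bar; filled circles passed an adjusted p of 0.05. The 6 filled circles among the chaperones lie between 0.23 and 0.42, Ern1 is at 0.34 and Ssr1 at -0.26. None of the 6 genes of the PERK-ATF4-CHOP arm is filled, where 5.19% of all genes passed.

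Chaperones past the threshold were found both with and without ERSE or ERSE-II letters in their windows. Of the 8 chaperones with ERSE or ERSE-II letters 4 rose, and their median difference was 0.25. Of the 5 with a window but no exact letters of either element, Pdia4 and Sdf2l1 rose, and the median was 0.17. Of all genes 2.63% passed as higher. The 3 ERAD genes with such letters had a median of 0.01. No test was made of these differences.

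Among the upstream sensors and factors, Ern1, the kinase and RNase IRE1, had the smallest adjusted p of the 34 genes on the probe set 1437119_at. It measured 8.04, 8.13 and 8.14 in wild type and 8.48, 8.45 and 8.40 in L26, with 0.26 between the groups. The difference was 0.34 (SE 0.05, adjusted p = 0.00934), and the call was kept on leaving out any array. The 5 Ern1 probe sets did not agree in direction, however. On 1438583_at, with 6.31, 6.27 and 6.18 in wild type and 5.94, 6.07 and 5.88 in L26, it fell by 0.29 (SE 0.07, adjusted p = 0.0498 over probe sets). The remaining 3 were between -0.07 and 0.04. The mean of all Ern1 probe sets differed by 0.006 (adjusted p = 0.963). Which Ern1 transcripts these probe sets cover was not examined here.

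Xbp1, the factor that IRE1 activates by splicing, measured 12.05, 12.08 and 12.12 in wild type and 12.38, 12.13 and 12.03 in L26. Replicate 1 of L26 stood above the rest and the groups overlapped, with a difference of 0.10 (SE 0.09, adjusted p = 0.591). All 4 Xbp1 probe sets had a higher mean in L26, at most by 0.14, and none passed. These values do not separate spliced from unspliced Xbp1. Atf6 had 0.08 (SE 0.06, adjusted p = 0.478). Its relative Atf6b had 0.18 (SE 0.07, adjusted p = 0.171), with L26 values of 8.99 to 9.17 above wild type values of 8.81 to 8.97.

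**Figure D4:**
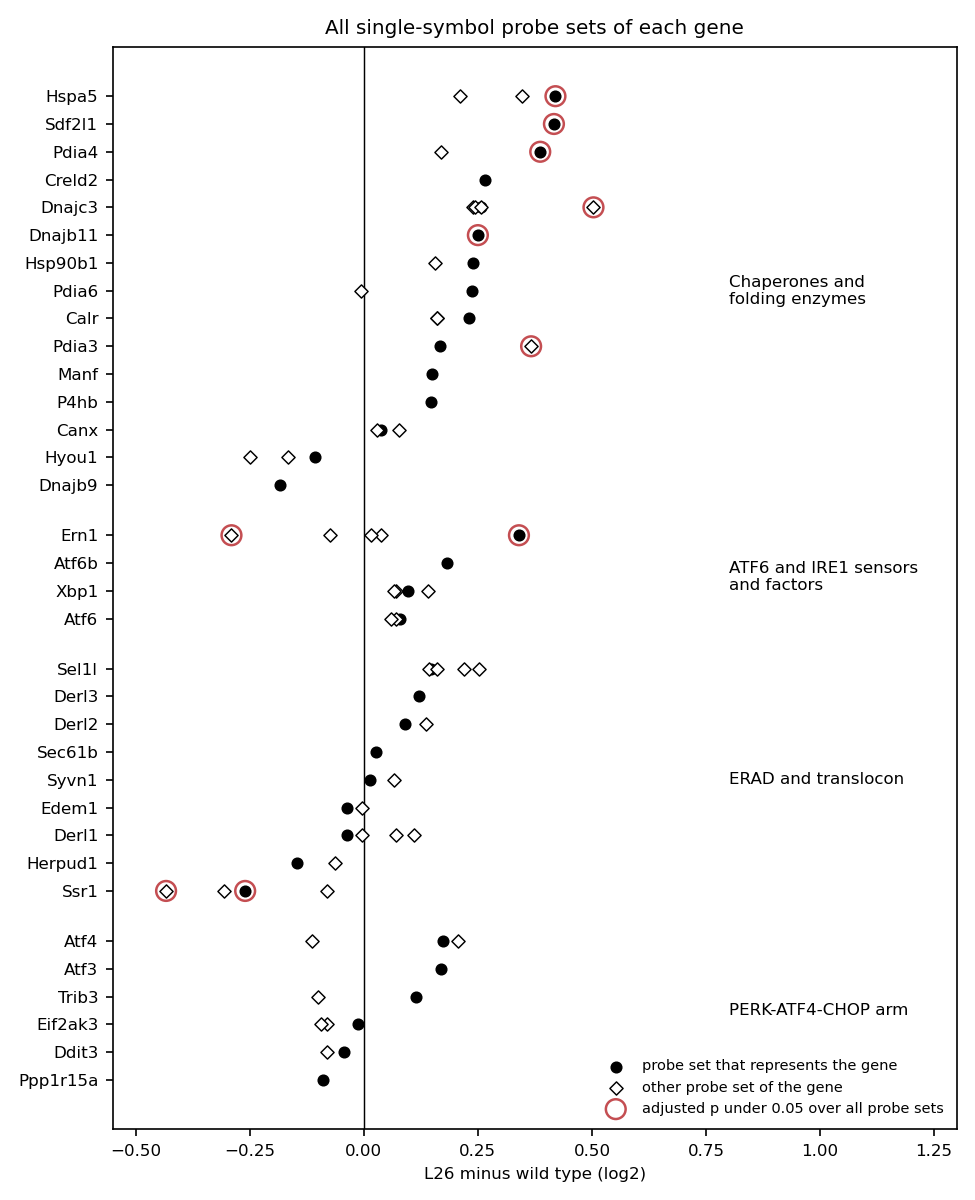
Difference between L26 and wild type (log2, horizontal axis) of all 79 probe sets of the 34 genes; filled circles mark the probe set that represents a gene, diamonds its other probe sets, and red rings an adjusted p under 0.05 over all probe sets. The 5 Dnajc3 and 5 Sel1l probe sets all lie to the right of 0 and the 4 Ssr1 probe sets to the left, while the 2 ringed Ern1 probe sets lie on opposite sides at 0.34 and -0.29.

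Over all 79 probe sets of the group 7 passed as higher and 3 as lower, where 3.92% of all probe sets passed. Of the 31 probe sets of chaperones 6 were higher and 0 lower past the threshold (2 were lower at an unadjusted p under 0.05), and 26 had a higher mean in L26.

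Genes of ERAD and of the translocon had values on both sides of 0. Of 9, 1 fell (Ssr1), 0 rose (limma; 1 was higher at an unadjusted p under 0.05) and 8 did not pass, with a median difference of 0.01, against 0.01 over all genes. Of all genes 5.19% passed, 2.57% as lower, and 11.3% were higher at an unadjusted p under 0.05. With only 9 genes, 1 call does not set them apart from other genes. Ssr1, a subunit of the translocon-associated protein complex, measured 11.22, 11.15 and 11.15 in wild type and 10.95, 10.93 and 10.86 in L26. The groups were 0.20 apart, and the difference was -0.26 (SE 0.05, adjusted p = 0.0262). All 4 Ssr1 probe sets had a lower mean in L26, and 1417764_at, with -0.43 (SE 0.09), passed as well (adjusted p = 0.0311 over probe sets). The Ssr1 call was lost when any array other than L26 replicate 1 was left out (adjusted p from 0.0586 to 0.102). Sec61b, a subunit of the channel itself, had 0.03 (SE 0.08, adjusted p = 0.893).

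Sel1l, the scaffold of the HRD1 ubiquitin ligase complex, measured 11.36, 11.30 and 11.41 in wild type and 11.52, 11.50 and 11.49 in L26. The groups did not overlap, but the difference of 0.15 (SE 0.05, adjusted p = 0.153) did not pass. All 5 Sel1l probe sets had a higher mean in L26, from 0.14 to 0.25. Syvn1, the ligase HRD1, had 0.01 (SE 0.06, adjusted p = 0.932). Herpud1, an organiser of that complex that is induced by ATF6, XBP1 and ATF4, had -0.15 (SE 0.08, adjusted p = 0.342), with groups that overlapped only at L26 replicate 1 (10.82). Edem1, a mannosidase-like ERAD lectin, had -0.04 (SE 0.08, adjusted p = 0.847). The derlins, membrane proteins of retrotranslocation, had -0.04 for Derl1, 0.09 for Derl2 and 0.12 for Derl3, with adjusted p from 0.268 to 0.796.

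In the PERK-ATF4-CHOP arm 0 of 6 genes passed in limma, where 5.19% of all genes passed. With only 6 genes, 0 calls are close to that share and do not set the arm apart from other genes. At an unadjusted p under 0.05 stood 1, Atf4, and 20.3% of all genes. The median difference was 0.05, with 3 genes higher and 3 lower in the mean. It was 0.02 with centred arrays and below 0, at -0.0275, when all probe sets of a gene were averaged. Eif2ak3, the kinase PERK, measured 9.21, 9.26 and 9.24 in wild type and 9.11, 9.35 and 9.21 in L26. The L26 values lay on both sides of the wild type values, with a difference of -0.01 (SE 0.07, adjusted p = 0.94) and a 95% interval of -0.16 to 0.14. Atf4, the factor whose translation PERK favours, measured 11.29, 11.37 and 11.39 in wild type and 11.60, 11.43 and 11.54 in L26. Its groups were apart by 0.04, and the difference of 0.17 (SE 0.06, adjusted p = 0.151) did not pass. The other Atf4 probe sets had 0.21 (1438992_x_at) and -0.11 (1439258_at).

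Targets downstream of Atf4 in this arm overlapped between the groups. Ddit3, the proapoptotic factor CHOP, measured 9.27, 9.29 and 9.43 in wild type and 9.35, 9.17 and 9.34 in L26, a difference of -0.04 (SE 0.07, adjusted p = 0.791) with a 95% interval of -0.20 to 0.11. Trib3, a pseudokinase induced by ATF4 and CHOP, had 0.11 (SE 0.06, adjusted p = 0.357), and Ppp1r15a, the GADD34 subunit that reverses eIF2 phosphorylation, -0.09 (SE 0.06, adjusted p = 0.49). Atf3, a stress-induced repressor, was among the dim probe sets, at 5.84, 5.93 and 5.77 in wild type and 6.19, 5.96 and 5.90 in L26, against a lower quartile of 5.95 over all values. It had 0.17 (SE 0.08, adjusted p = 0.287). Atf3 and Ppp1r15a are also induced by neuronal activity. On the same arrays 10 of 12 activity-induced immediate early genes fell, where 2.57% of all genes passed as lower. Their list mean was 9.34 to 9.85 in wild type against 8.56 to 8.73 in L26. The part of neuronal activity in the Atf3 and Ppp1r15a values was not tested. No test compared the PERK-ATF4-CHOP arm with the chaperones.

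Other genes of the same pathways were taken from 5 lists. Of 142 measured 2 rose and 3 fell (3.52%, where 5.19% of all genes passed). Of 34 other ER folding genes (oxidoreductases, prolyl isomerases, glycan-trimming enzymes) 0 passed in limma, 5 being higher and 3 lower at an unadjusted p under 0.05, with a median difference of 0.02. Of 36 other ERAD and translocon genes 1 rose and 1 fell. Sec61a1, which encodes the pore of the translocon, rose by 0.21 (SE 0.05, adjusted p = 0.0477), and its 5 other probe sets were between -0.02 and 0.26. Erlec1, an ER lectin that delivers glycoproteins to ERAD, fell by 0.30 (SE 0.06, adjusted p = 0.0238), and all 3 Erlec1 probe sets fell (-0.30, -0.35 and -0.38).

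Of 28 ATF4 targets, which include genes of amino acid synthesis and transport, 0 rose and 2 fell (7.14%). Of all genes 5.19% passed, 2.57% as lower. At an unadjusted p under 0.05, 9 of the 28 were higher, a larger share than the 11.3% of all genes, and 2 were lower. The mean was higher in L26 for 20 of the 28 and lower for 8. The median difference was 0.095, and the list means of 8.91 to 8.97 in wild type and 8.98 to 9.03 in L26 did not overlap. They overlapped with centred arrays. Cebpb, a bZIP transcription factor, fell by 0.29 (SE 0.06, adjusted p = 0.0277) and Ddit4, an inhibitor of mTORC1 signalling, by 0.28 (SE 0.07, adjusted p = 0.0477). Of 24 genes of eIF2 signalling and further sensors Bok, a BCL2 family member, rose by 0.39 (SE 0.05, adjusted p = 0.00345), with 9.94, 10.00 and 9.93 in wild type and 10.36, 10.35 and 10.33 in L26. The other 23 did not pass. Of 20 cytosolic heat shock genes 0 passed in limma (4 higher and 0 lower at an unadjusted p under 0.05), with a median difference of 0.05 and list means that overlapped between the groups.

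**Figure D5:**
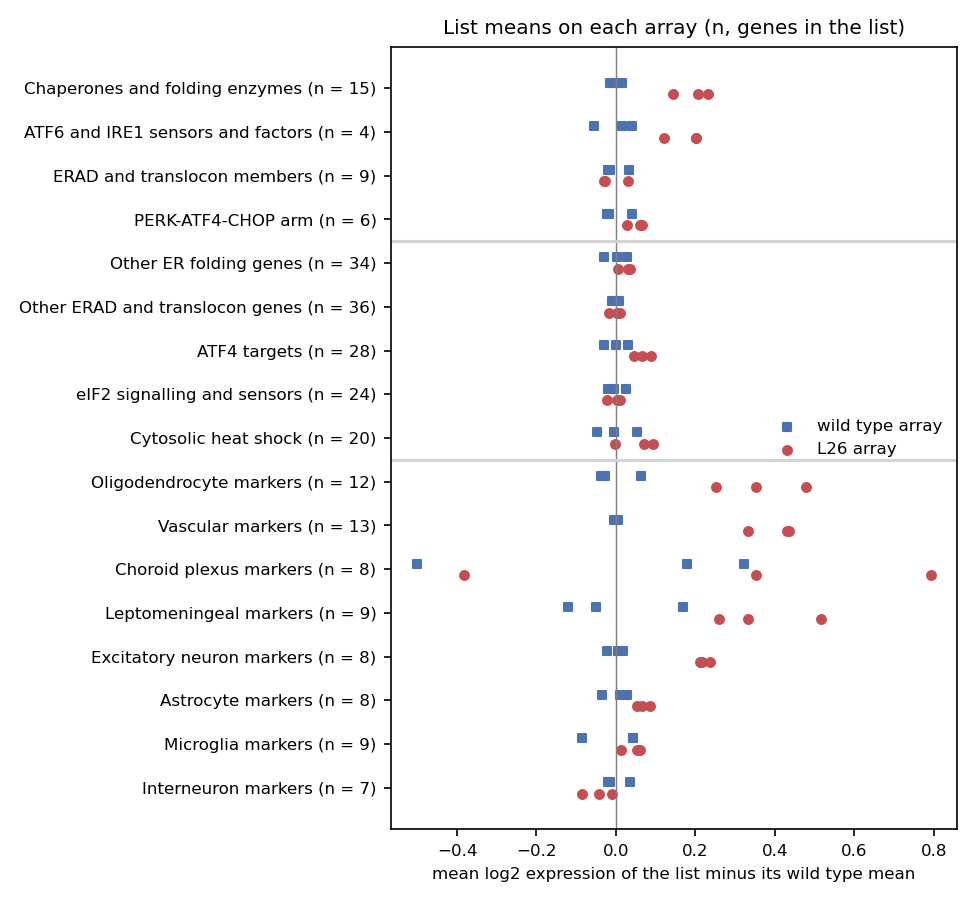
Mean log2 expression of each list on each array, minus the wild type mean of the list (horizontal axis); squares are wild type and circles L26 arrays, and n is the number of genes in a list. The chaperone circles lie between 0.14 and 0.23, those of the other ER folding genes overlap the wild type squares, and those of the oligodendrocyte, vascular, leptomeningeal, excitatory neuron and astrocyte markers and of the ATF4 targets lie to the right of the wild type squares (the last 2 lists overlapped with centred arrays).

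As a list mean, the 15 chaperones stood at 10.56, 10.57 and 10.59 in wild type and at 10.81, 10.78 and 10.72 in L26, a difference of 0.19. Markers of other cell types moved on the same arrays. Their counts stand beside the 5.19% of all genes that passed, 2.63% as higher and 2.57% as lower. Of 12 oligodendrocyte markers 10 rose, with list means of 11.18 to 11.28 in wild type and 11.47 to 11.69 in L26. Of 13 vascular markers 8 rose, with list means of 8.71 to 8.72 in wild type and 9.05 to 9.15 in L26. Of 8 excitatory neuron markers 2 rose (Fibcd1 and C1ql2), with list means of 10.27 to 10.31 in wild type and 10.51 to 10.53 in L26. Leptomeningeal markers, 2 of 9 higher past the threshold, had list means of 8.50 to 8.79 in wild type and 8.88 to 9.13 in L26. Of 8 astrocyte markers 0 passed in limma (2 higher and 0 lower at an unadjusted p under 0.05). The astrocyte list means of 11.44 to 11.50 in wild type and 11.53 to 11.56 in L26 did not overlap, but did so with centred arrays. Of 9 microglia markers 3 rose and 1 fell, with C1qb, a complement subunit, at 0.29 and P2ry12, a purinergic receptor, at -0.30, and with list means that overlapped (9.50 to 9.63 in wild type, 9.60 to 9.65 in L26). Of 7 interneuron markers 1, the calcium buffer Pvalb, fell by 0.30, and the list means overlapped (11.09 to 11.15 in wild type, 11.03 to 11.10 in L26), which they did not with centred arrays. The part of these cell types in the chaperone values was not tested.

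Choroid plexus is a secretory epithelium that borders the hippocampus. Its list mean was 9.24, 9.92 and 10.06 in wild type and 10.10, 9.36 and 10.54 in L26, so that the groups overlapped, and 0 of 8 markers passed in limma (0 at an unadjusted p under 0.05). The part of choroid plexus in the chaperone values was not tested.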

How the data were processed

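RNA of 6 hippocampi was hybridised to 1 array each (3 L26, 3 wild type). The deposited log2 values, 1 per probe set and array, come from RMA and affy, per the submitters' processing notes, with versions not given in the sources used here. They carry no detection calls and can understate differences of dim transcripts. The number of arrays limits the precision. Of 45101 probe sets 64 controls were dropped, and 34945 of the other 45037 have 1 gene symbol in the platform annotation (932 several, 9160 none). By Entrez identifier 34741 matched RefSeq.

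All 18193 genes or, where said, all 45037 probe sets were fitted with limma (version 3.58.1, R 4.3.3; lmFit, eBayes, two-sided, Benjamini-Hochberg adjustment, threshold 0.05). SE and 95% intervals of genes come from that fit, those of list means from the spread of array means. The script was tested on simulated data with 3 arrays per group. It called 18% of genes changed by 0.25 and 72% of those changed by 0.5 on the log2 scale. Genes that did not pass may therefore still differ by such amounts. The simulation had 151 calls, against 945 in the real data, so its recovery need not hold for them. The text names all 34 genes, up to 6 called genes of each other pathway list and up to 2 of each marker list. Neurod6, Camk2a and Prox1 are named as well, chosen after their values were seen. Members, lists and tests were chosen with earlier results of these data known. Promoter windows come from RefSeq (GRCm38.p6, C57BL/6J), not from the mice used.

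The alternative fits blocked on replicate number, left out each array, repeated the quantile normalization, centred arrays on their medians, dropped the dimmest 40% of probe sets, used a trended robust prior, weighted arrays, dropped probe sets ending in _x_at or _s_at, averaged the probe sets of each gene, or used a threshold of 0.1.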

Additional observations from a re-analysis of the deposited data

How the results depend on the processing

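The 8 genes past the threshold kept their direction in all 14 alternative fits, and 8 of the other 26 changed sign in at least 1. For the 8 genes, whose groups did not overlap, leaving out 1 array could not change the direction. Blocking on replicate number and the trended robust prior leave each difference unchanged. With probe sets averaged the Ern1 difference was only 0.006. With the replicate number as a block (replicate block) 3 genes of the group were higher past the threshold in place of 7, 0 lower in place of 1, 2 chaperones in place of 6, and 1 other pathway gene each way. The replicate numbers share only a number: deviations of same-numbered arrays correlated at 0.0288, -0.0926 and 0.164, and 3 of 6 arrays correlated best with their own number. Leaving out 1 array gave 1 to 4 genes higher and 0 to 1 lower, 0 to 3 chaperones, 401 to 696 genes in all, 1 to 3 other pathway genes higher and 0 to 2 lower. Centred arrays gave 4 genes of the group higher, 3 chaperones, 1 other pathway gene higher and a median of 0.02 for the PERK-ATF4-CHOP arm. That median was -0.0133 without the dimmest 40% of probe sets, which removes Atf3, and -0.0275 with all probe sets of a gene averaged. Other pathway genes higher numbered 6 without the dimmest probe sets, 6 with an intensity trend and robust prior, 5 with probe sets averaged and 8 at a threshold of 0.1, where 1734 of all genes passed. The trend and robust prior put 2 genes of the group lower (Ssr1 and Dnajb9). The cause of these changes was not tested. The PERK-ATF4-CHOP arm had 0 genes past the threshold in every fit run. For 6 genes this is close to the share of all genes, 5.19% in the main fit. The values give no signal over background, so that how far the dim Atf3 probe set can show a change is not known.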
